A study of Homo sapiens with 6 samples.

Results

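The alpha-arrestins are a small family of adaptor proteins, and 5 of the 53715 genes in the count table belong to the set described here: TXNIP, ARRDC4, ARRDC3, ARRDC1 and ARRDC2. They were taken by gene symbol. The set was chosen by results of these data, in particular the level of ARRDC3, which differs between the sO-L1 and ASO-Ctr libraries, so ARRDC3 is described without a test in every comparison. A further family member, ARRDC5, had 0 counts in all 6 libraries, which allows at most 0.0446 to 0.159 CPM (3 counts per library, counting error only).

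RNA came from H9, an established line of primed human embryonic stem cells, transfected with 1 of 3 fluorescein-tagged oligonucleotides at 25 nM. LINE1 (L1) elements are retrotransposons present in many genomic copies. The ASO-L1 group received an antisense oligo against L1, the sO-L1 group a sense L1 oligo, and the ASO-Ctr group a non-specific antisense oligo. Every group was also given 0.7 uM trans-ISRIB, which restores translation initiation under stress, together with the caspase inhibitor emricasan at 5 uM and the ROCK inhibitor Y-27632 at 10 uM, all removed after 24 hours. Tagged cells were sorted at 48 hours, so that the measurements are of cells that had taken up an oligo. For the culture after transfection, 1 of the labels gives mTeSR medium and another gives RSeT. Each group had 2 libraries, and the labels do not say whether they came from separate cultures, so the spread behind the p-values may be technical. In the main fit that spread is what remains after group and replicate number are fitted, moderated by the spread of other genes. The stated question of the study is the role of L1 in control of 8-cell-stage genes.

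Alpha-arrestins share the arrestin fold with the beta-arrestins, and most carry PPxY motifs that recruit NEDD4-family ubiquitin ligases to membrane proteins, which are then internalised or sorted. TXNIP binds thioredoxin and lowers glucose uptake by promoting the internalisation of glucose transporters, and its close relative ARRDC4 also restrains glucose uptake. Transcription of both is driven by the glucose-sensing factors MLXIP (MondoA) and MLXIPL (ChREBP), which bind carbohydrate response elements together with MLX. ARRDC3 directs ubiquitination of the beta-2 adrenergic receptor and of integrin beta-4, and ARRDC1 recruits the ESCRT protein TSG101 to the plasma membrane to bud microvesicles. ARRDC2 is less studied.

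Promoter sequence is shown for the 3 members whose levels moved most between groups. Sequences are from RefSeq (GRCh38.p14), while the counts were made on hg19. On GRCh38 the genes lie at chr1:145992435-145996600 (TXNIP, minus strand), chr15:97960698-97973838 (ARRDC4, plus strand), chr5:91368724-91383359 (ARRDC3, minus strand), chr9:137605654-137615360 (ARRDC1, plus strand) and chr19:18001132-18014102 (ARRDC2, plus strand), by GENCODE release 29. All 5 members matched the RefSeq table, with 8 windows of 300 bases (250 before to 50 after a start). Each stretch below is 100 bases of the gene's own strand, with motif matches in capitals. The TXNIP stretch, on the minus strand, runs from 150 to 51 bases before the start at chr1:145996630-145996729 and lies outside annotated exons. Its capitals mark, in order, a FOXO motif on the opposite strand (GTAAACA) and a tandem carbohydrate response element, from 88 to 72 bases before the start. The ARRDC4 stretch, on the plus strand, runs from 250 to 151 bases before the start at chr15:97960453-97960552, also outside exons, and its capitals mark an E-box. The ARRDC3 stretch, from the second of 2 annotated starts and on the minus strand, runs from 110 to 11 bases before that start at chr5:91380108-91380207. It shares 44 bases with annotated exons, none of them annotated as UTR, and its capitals mark a FOXO motif.
TXNIP: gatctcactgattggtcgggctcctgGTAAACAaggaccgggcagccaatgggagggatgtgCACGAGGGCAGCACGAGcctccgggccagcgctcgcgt
ARRDC4: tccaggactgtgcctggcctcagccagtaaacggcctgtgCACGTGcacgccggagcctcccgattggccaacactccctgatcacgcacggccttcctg
ARRDC3: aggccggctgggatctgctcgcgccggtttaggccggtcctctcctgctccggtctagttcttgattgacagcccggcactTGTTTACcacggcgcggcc

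4 motifs were searched on both strands. The E-box (CACGTG) was found in 7.26% of all 35116 promoter windows of this length. The tandem element, CACGNG and CNCGNG placed 5 bases apart, was found in 0.501%. The FOXO motif (TGTTTAC) was found in 3.42% and the ATF4 motif (TGATGNAA) in 3.62%. The E-box and the first part of the tandem element can overlap. No ATF4 motif was found in any member's window, and none of the 4 motifs was found in the windows of ARRDC1 or ARRDC2, the second TXNIP start or the first ARRDC3 start. These are letter matches in a short window, and no binding was measured.

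**Figure D1:**
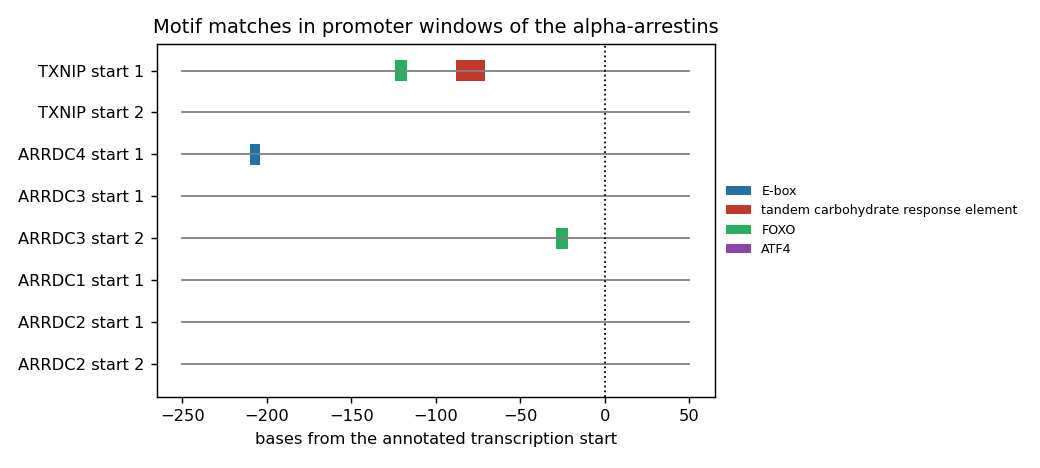
Motif matches in the 8 promoter windows of the 5 alpha-arrestins, by distance in bases from the annotated transcription start (dotted line). Coloured blocks are matches on either strand: a FOXO motif and a tandem carbohydrate response element at the first TXNIP start, an E-box at ARRDC4 and a FOXO motif at the second ARRDC3 start.

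Library totals ranged from 18897936 counts (ASO-Ctr replicate 1) to 67192937 (ASO-Ctr replicate 2). Pluripotency markers were abundant throughout: all 10 had counts in every library, and they summed to 7220 to 7307 CPM (counts scaled to an equal library total) in ASO-L1, 7257 to 7475 in sO-L1 and 7213 to 7620 in ASO-Ctr. The 6 endoderm markers summed to 2.95 to 3.72 CPM in ASO-L1, 4.89 to 5.39 in sO-L1 and 4.32 to 4.60 in ASO-Ctr, and their part in the results was not tested. Of these, FOXA2 was lower in ASO-L1 (1.93 and 1.61 CPM in ASO-L1 against 3.75 and 3.89 in sO-L1), while EOMES had 0.822 and 0.639 CPM in ASO-L1 against 0.260 and 0.393 in sO-L1. Across the 6 libraries, summed mesoderm markers lay between 102 and 130 CPM with HAND1 at 0, neuroectoderm markers between 317 and 364, trophectoderm markers between 9.53 and 11.1, and fibroblast markers between 374 and 408. In these bulk samples, fewer cells of a type and less RNA per cell cannot be told apart.

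TXNIP, the thioredoxin-binding member, rose in cells given the L1 antisense oligo. It had 34.3 and 23.2 CPM in the ASO-L1 libraries (1584 and 1341 counts), 14.5 and 14.2 CPM in sO-L1 (502 and 866 counts) and 13.6 and 12.3 CPM in ASO-Ctr (257 and 828 counts; replicates 1 and 2 in each case). Both ASO-L1 libraries lay above the other 4, and the sO-L1 and ASO-Ctr libraries lay close together. The means were 28.7 ± 7.85 CPM in ASO-L1, 14.3 ± 0.201 in sO-L1 and 12.96 ± 0.903 in ASO-Ctr (SD, n = 2 each). Against sO-L1 the log2 fold change was 0.97 ± 0.08 (SE), or 1.96-fold, with an adjusted p of 2.41e-11 from edgeR's quasi-likelihood test. Against ASO-Ctr it was 1.13 ± 0.09, or 2.18-fold, with an adjusted p of 1.77e-12 from the same test. The size differed between replicates: the log2 ratio to sO-L1 was 1.23 in replicate 1 and 0.72 in replicate 2, and the ratio to ASO-Ctr was 1.35 and 0.94.

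ARRDC4, the relative of TXNIP that also restrains glucose uptake, moved in the same direction by a smaller amount. Its levels were 23.3 and 20.2 CPM in ASO-L1 (1077 and 1171 counts), 14.5 and 14.4 CPM in sO-L1 (502 and 881 counts) and 13.02 and 12.25 CPM in ASO-Ctr (246 and 823 counts). Both ASO-L1 libraries again lay above all others, and the replicates of each group were closer to each other than for TXNIP in ASO-L1. The means were 21.8 ± 2.17 CPM in ASO-L1, 14.5 ± 0.0273 in sO-L1 and 12.6 ± 0.544 in ASO-Ctr (SD, n = 2 each). ARRDC4 rose 1.5-fold against sO-L1, a log2 fold change of 0.58 ± 0.08 with an adjusted p of 5.93e-08 (edgeR). It rose 1.74-fold against ASO-Ctr, a log2 fold change of 0.80 ± 0.08 with an adjusted p of 7.23e-11 (edgeR).

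These p-values come from a fit in which the replicate number is a block, and the labels do not establish that the numbers pair the libraries. Without the block, TXNIP had adjusted p = 0.0245 against sO-L1 and 0.0162 against ASO-Ctr (edgeR). The values for ARRDC4 without the block were 0.031 and 0.013 (edgeR).

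ARRDC3, the adaptor for the beta-2 adrenergic receptor, had its highest level in the sense-oligo cells. It had 14.3 and 13.5 CPM in ASO-L1 (663 and 784 counts), 24.1 and 22.02 CPM in sO-L1 (836 and 1343 counts) and 17.8 and 14.7 CPM in ASO-Ctr (337 and 989 counts). The sO-L1 libraries were both above the other 4. In plain CPM both ASO-L1 libraries lay below both ASO-Ctr libraries, with a narrow gap to ASO-Ctr replicate 2. With the library scaling used in the fit (TMM) these groups overlapped. On the mean-centred log2 scale, ASO-L1 replicate 1 was at -0.253 and ASO-Ctr replicate 2 at -0.2655. The means were 13.9 ± 0.568 CPM in ASO-L1, 23.1 ± 1.49 in sO-L1 and 16.3 ± 2.202 in ASO-Ctr (SD, n = 2 each). The log2 fold change was -0.72 ± 0.08 for ASO-L1 against sO-L1, -0.18 ± 0.08 for ASO-L1 against ASO-Ctr and 0.54 ± 0.08 for sO-L1 against ASO-Ctr, the difference by which the gene was selected. The level in ASO-L1 was thus 0.608 times that in sO-L1 and 0.885 times that in ASO-Ctr. The gap between these 2 ratios restates the sO-L1 against ASO-Ctr difference by which the gene was selected and is not a separate result. An annotated antisense RNA, ARRDC3-AS1, shares 145 exon bases with ARRDC3 (GENCODE release 29), and whether counting used strand is not given in the sources used here, so reads of the pair may not be separated.

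ARRDC1, the microvesicle-budding member, did not pass the test in either ASO-L1 comparison. It had 16.2 and 15.4 CPM in ASO-L1 (750 and 894 counts), 14.6 and 14.7 CPM in sO-L1 (506 and 897 counts) and 12.4 and 15.5 CPM in ASO-Ctr (234 and 1039 counts). In plain CPM the ASO-L1 libraries lay above those of sO-L1 but overlapped those of ASO-Ctr, whose replicates stood furthest apart. With TMM scaling, on the mean-centred log2 scale, ASO-L1 replicate 2 (0.065) lay just above ASO-Ctr replicate 2 (0.037). Against sO-L1 the log2 fold change was 0.12 ± 0.08 with a 95% confidence interval of -0.05 to 0.29 and an adjusted p of 0.334 (edgeR). Against ASO-Ctr it was 0.17 ± 0.09 with an interval of -0.01 to 0.34 and an adjusted p of 0.174 (edgeR). This last call depended on the libraries: without ASO-Ctr replicate 2 the log2 fold change was 0.39 with an adjusted p of 0.0209, and with all libraries thinned to the shallowest it was 0.30 with an adjusted p of 0.0311 (edgeR). Counts may include reads of AL590627.2, an annotated transcript that shares 183 exon bases on the same strand, and of ARRDC1-AS1, which shares 29 on the opposite strand.

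ARRDC2 was the least abundant of the 5. It had 2.83 and 2.85 CPM in ASO-L1 (131 and 165 counts), 2.54 and 3.56 CPM in sO-L1 (88 and 217 counts) and 2.28 and 3.26 CPM in ASO-Ctr (43 and 219 counts). The groups overlapped, and the ASO-L1 values lay between the replicates of each other group. The log2 fold change was -0.11 ± 0.15 against sO-L1, with a 95% interval of -0.42 to 0.20 and an adjusted p of 0.672 (edgeR). Against ASO-Ctr it was 0.02 ± 0.16, with an interval of -0.31 to 0.35 and an adjusted p of 0.955 (edgeR). Neither interval reaches the 1.5-fold change of ARRDC4, although both reach changes smaller than that in either direction, and the sign of both fold changes turned under some of the settings tried. An annotated transcript on the opposite strand, AC020904.3, shares 442 exon bases with ARRDC2.

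**Figure D2:**
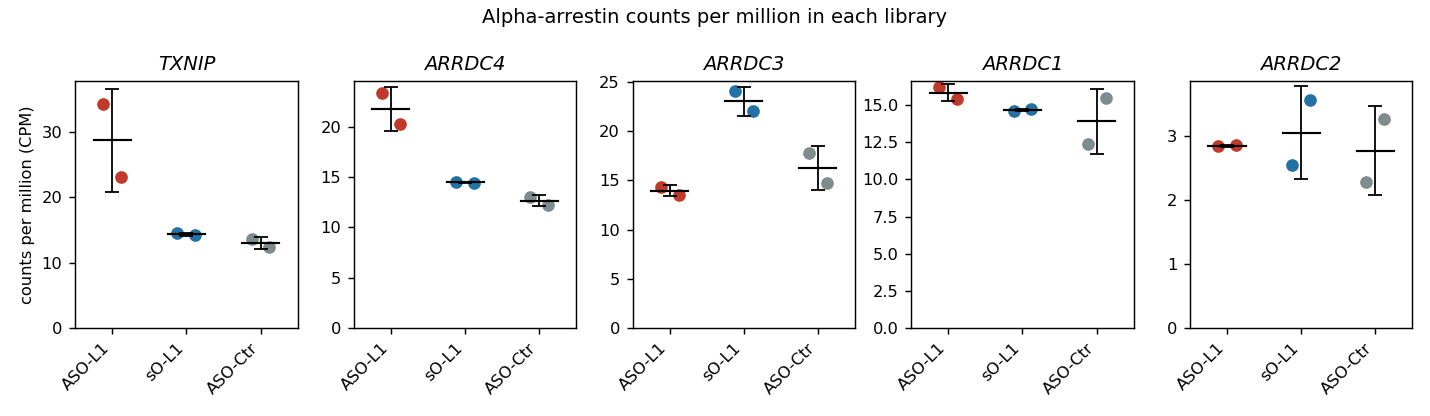
CPM (counts scaled to an equal library total) of each alpha-arrestin in each library, by group, with replicate 1 left of replicate 2. Points are libraries, the horizontal bar is the mean and the error bar the SD of the 2 libraries. TXNIP and ARRDC4 are highest in both ASO-L1 libraries, ARRDC3 in both sO-L1 libraries, and for ARRDC1 and ARRDC2 the ASO-L1 and ASO-Ctr libraries overlap.

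Of the 4 members tested against sO-L1, 2 were called higher and none lower. Over all 19156 genes tested, 23.0% were called in this comparison, 10.3% higher and 12.7% lower. The same 2 of 4 were called higher against ASO-Ctr, where 21.5% of all genes were called, 9.88% higher and 11.6% lower. Without the block the shares of genes called were 1.84% against sO-L1 and 1.95% against ASO-Ctr, and TXNIP and ARRDC4 were among them in both comparisons. The comparisons share the ASO-L1 libraries, so the second does not repeat the first independently. In sO-L1 against ASO-Ctr 1.72% of genes were called, and since the set was chosen by that contrast no member was tested there. Its fold changes were 0.22 ± 0.08 for ARRDC4, 0.16 ± 0.10 for TXNIP, 0.13 ± 0.16 for ARRDC2 and 0.05 ± 0.09 for ARRDC1 on the log2 scale.

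**Figure D3:**
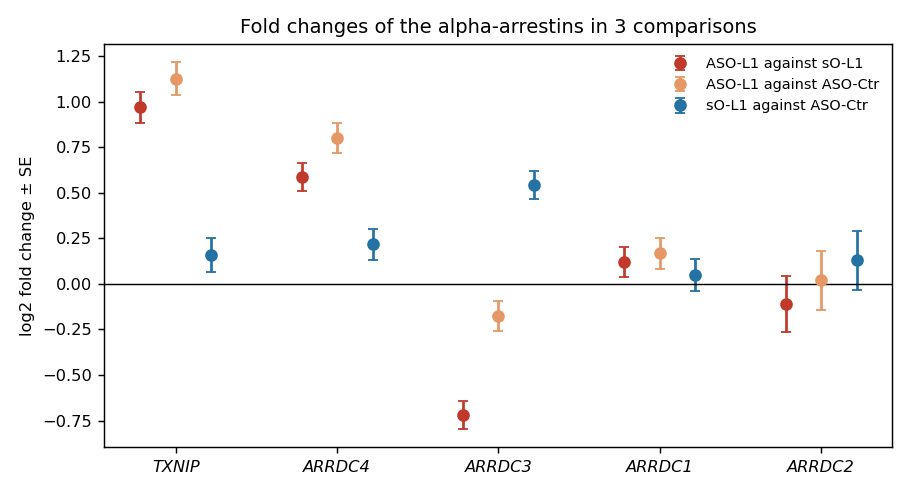
Log2 fold change of each alpha-arrestin in 3 comparisons, with error bars of 1 SE from the fit over all 6 libraries. TXNIP and ARRDC4 are above 0 in both ASO-L1 comparisons, ARRDC3 is at -0.72 against sO-L1 and 0.54 in sO-L1 against ASO-Ctr, and ARRDC1 and ARRDC2 lie near 0.

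Among all genes tested, the log2 fold change of TXNIP stood at percentile 98.1 against sO-L1 and 99.1 against ASO-Ctr. ARRDC4 stood at 94.2 and 97.7 in the same 2 comparisons. ARRDC3 stood at 2.198 against sO-L1 but at 24.8 against ASO-Ctr. The gap between these ranks reflects the sO-L1 against ASO-Ctr difference by which ARRDC3 was selected, and is not a separate result. The authors' deposited table for ASO-L1 minus sO-L1 lists log2 fold changes of 0.96 for TXNIP (adjusted p = 1.65e-09), 0.59 for ARRDC4 (adjusted p = 1.74e-06) and -0.71 for ARRDC3. It lists 0.13 for ARRDC1 (adjusted p = 0.342) and -0.13 for ARRDC2 (adjusted p = 0.674).

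Levels of different genes were compared as CPM per kilobase of merged exon (GENCODE release 29, GRCh38). In ASO-L1 the order was TXNIP (7.92 ± 2.17), ARRDC4 (5.34 ± 0.534), ARRDC1 (4.14 ± 0.145), ARRDC3 (2.83 ± 0.115) and ARRDC2 (0.613 ± 0.00240), all SD with n = 2. TXNIP and ARRDC4 were neighbours that did not differ by more than the sum of their SDs, while the other neighbours did. In sO-L1 ARRDC3 came first at 4.68 ± 0.301, ahead of TXNIP (3.96 ± 0.0555), ARRDC1 (3.83 ± 0.0201), ARRDC4 (3.55 ± 0.00669) and ARRDC2 (0.657 ± 0.155). In ASO-Ctr, ARRDC1 (3.64 ± 0.570), TXNIP (3.58 ± 0.249), ARRDC3 (3.30 ± 0.446) and ARRDC4 (3.10 ± 0.134) did not differ between neighbours by more than the sum of their SDs, and ARRDC2 (0.597 ± 0.150) was lower. The 4 more abundant members thus spanned 3.10 to 3.64 in ASO-Ctr, 3.55 to 4.68 in sO-L1 and 2.83 to 7.92 in ASO-L1. In sO-L1 each gap between neighbours exceeded the sum of their SDs. Each SD rests on 2 libraries, and for these 4 members the SDs were larger in ASO-Ctr than in sO-L1. The neighbour comparison therefore does not rank the groups by closeness of levels.

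The genes whose profiles over the 6 libraries lay nearest to a member were searched among 10294 genes, by the root mean square difference of mean-centred log2 CPM. They are a description, and depth, group and replicate are shared by all of them. TXNIP was nearest to ASNS, which encodes asparagine synthetase, at a difference of 0.0892. ASNS had 251 and 203 CPM in ASO-L1, 124 and 109 in sO-L1, with 106 and 97.2 in ASO-Ctr, scaled by TMM. Next came FLNC, a filamin that crosslinks actin (0.0893), and the transcription factor CEBPB (0.120). ARRDC4 was nearest to RP11-1094M14.11 (0.0532), to MTHFD2, a mitochondrial folate enzyme (0.0633), and to the snoRNA host gene SNHG1 (0.0655). MTHFD2 had 287 and 247 CPM in ASO-L1, 171 and 158 in sO-L1, with 149 and 150 in ASO-Ctr on the same scale. For ARRDC3 the nearest were KCTD8 (0.115), CIR1 (0.135) and LYPLAL1 (0.137). CIR1 had 21.5 and 20.1 CPM in ASO-L1, 38.0 and 28.97 in sO-L1, with 29.1 and 26.1 in ASO-Ctr. ARRDC1, which varied little, was nearest to TRABD (0.0252), TUBE1 (0.0282) and SSBP4 (0.0286), and ARRDC2 to TEP1 (0.0501), VAMP4 (0.0586) and PRKAA2 (0.0749). Between members, the profiles of TXNIP and ARRDC4 had a Pearson correlation of 0.984 over the 6 libraries, and those of TXNIP and ARRDC3 one of -0.480. These values describe libraries of 3 groups, not independent samples.

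**Figure D4:**
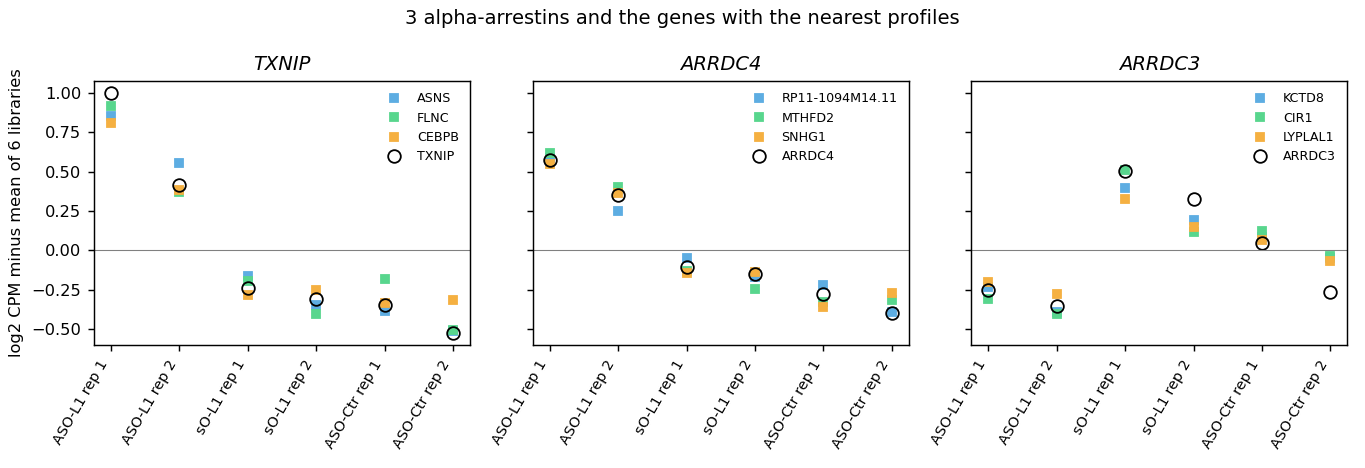
Log2 CPM minus the mean of the 6 libraries for TXNIP, ARRDC4 and ARRDC3 (open circles) and for the 3 genes with the nearest profile to each (coloured squares). Libraries run from ASO-L1 to sO-L1 to ASO-Ctr. ASO-L1 replicate 1 is highest for TXNIP and ARRDC4, and sO-L1 replicate 1 for ARRDC3.

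Genes that act upstream or downstream of the family were taken from lists of textbook roles. The lists were chosen with earlier results of these data known, so their counts are a description. They are not a test of enrichment. Of 12 transcription factors known to act on TXNIP or its relatives, or on the integrated stress response, 5 rose against sO-L1 and none fell, beside 10.3% higher and 12.7% lower over all genes. Without the block 2 rose, beside 0.914% called higher over all genes. The median log2 fold change was 0.15, against 0.00 over all genes. The factor with the largest change was ATF5, a stress-induced bZIP factor, with 83.1 and 55.0 CPM in ASO-L1, 20.0 and 15.9 in sO-L1, with 18.8 and 15.2 in ASO-Ctr. Its log2 fold change against sO-L1 was 1.93 ± 0.06 (adjusted p = 2.81e-28, edgeR; 0.00538 without the block). The glucocorticoid receptor NR3C1, which activates TXNIP in other cells, rose by 0.54 ± 0.05 (adjusted p = 2.6e-12, edgeR; 0.00815 without the block), with 124 and 125 CPM in ASO-L1 against 84.5 and 87.0 in sO-L1. ATF4, the main effector of the integrated stress response, rose by 0.37 ± 0.05 (adjusted p = 1.61e-08, edgeR), a call lost without the block at adjusted p = 0.0842. Against ASO-Ctr 4 of the 12 rose and 1 fell, beside 9.88% higher and 11.6% lower over all genes, and the median was 0.10. Without the block 2 rose and none fell, beside 0.903% called higher and 1.05% lower over all genes.

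Of the glucose-sensing factors and their partner, MLXIP was called in 1 comparison and MLXIPL and MLX in neither. MLXIP had 49.9 and 53.2 CPM in ASO-L1, 38.3 and 49.8 in sO-L1, with 44.3 and 54.6 in ASO-Ctr. It was called higher against sO-L1 at 0.23 ± 0.06 (adjusted p = 0.00211, edgeR; 0.399 without the block). Against ASO-Ctr the value was 0.08 with adjusted p = 0.368 (edgeR). MLXIPL had a log2 fold change of 0.19 ± 0.13 against sO-L1 (adjusted p = 0.316, edgeR) and 0.13 ± 0.14 against ASO-Ctr (adjusted p = 0.571, edgeR). The values of MLX were 0.11 ± 0.06 (adjusted p = 0.192, edgeR) and 0.12 ± 0.06 (adjusted p = 0.181, edgeR) in the same comparisons. These 3 genes fall outside the naming rule and were chosen after their values were seen, because they are known to drive TXNIP and ARRDC4.

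TXNIP binds and inhibits thioredoxin, and of 11 thioredoxin-system genes tested of 12 listed, 1 rose and 1 fell against sO-L1, a share near the 23.0% called over all genes, with a median log2 fold change of -0.07. TXNRD3, a thioredoxin reductase, fell by 0.70 on the log2 scale (SE 0.12, adjusted p = 1.24e-05, edgeR), with 3.46 and 5.87 CPM in ASO-L1, 7.07 and 8.25 in sO-L1, with 7.62 and 8.86 in ASO-Ctr. TXNRD1, the cytosolic reductase, rose by 0.14 ± 0.05 (adjusted p = 0.0231, edgeR), and PRDX4, a peroxiredoxin, had a value of -0.12 with adjusted p = 0.0702 (edgeR). Neither TXNRD call held without the block, where adjusted p was 0.142 for TXNRD3 and 0.336 for TXNRD1. Against ASO-Ctr 4 of the 11 rose and 2 fell, beside 21.5% called over all genes, with a median of 0.01, and none of them was called without the block. The inflammasome sensor NLRP3, a partner of TXNIP, had 12 counts in all and was not tested.

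Of 11 glucose-uptake genes, 2 rose and 2 fell against sO-L1, and 2 rose and 3 fell against ASO-Ctr, with no call in either without the block. Over all genes 23.0% and 21.5% were called in these comparisons, and the list's medians were -0.03 and -0.07. SLC2A3, the neuronal-type glucose transporter, had 897 and 898 CPM in ASO-L1 against 717 and 760 in sO-L1, and rose by 0.29 ± 0.05 (adjusted p = 2.93e-06, edgeR; 0.0651 without the block). SLC2A14 rose by 0.37 ± 0.09 (adjusted p = 0.00149, edgeR; 0.267 without the block), but it is a near-identical copy of SLC2A3, so its reads are uncertain. SLC2A4, the insulin-responsive transporter, fell by 0.37 (SE 0.12, adjusted p = 0.0168, edgeR; 0.205 without the block).

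Among the 9 NEDD4-family ligases, the partners that PPxY motifs recruit, 1 rose and 2 fell against sO-L1, and none rose and 3 fell against ASO-Ctr, beside 23.0% and 21.5% called over all genes. The list's medians were -0.02 and -0.12 in the same comparisons. SMURF2 fell in both comparisons, with 28.6 and 33.9 CPM in ASO-L1, 41.9 and 46.4 in sO-L1, with 45.4 and 45.8 in ASO-Ctr. Its log2 fold change was -0.49 ± 0.06 against sO-L1 (adjusted p = 9.37e-09, edgeR; 0.0343 without the block) and -0.51 ± 0.06 against ASO-Ctr (adjusted p = 7.88e-09, edgeR; 0.0318 without the block). HECW2 fell by 0.67 against sO-L1 (SE 0.12, adjusted p = 1.55e-05, edgeR; 0.0527 without the block), and SMURF1 rose by 0.20 ± 0.06 (adjusted p = 0.0115, edgeR; 0.368 without the block).

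Of 21 ESCRT genes, which serve the budding that ARRDC1 starts, 1 rose and 5 fell against sO-L1, a share close to the 23.0% called among all genes. VPS37A fell by 0.39 (SE 0.06, adjusted p = 2.56e-06, edgeR; 0.0596 without the block), CHMP2A by 0.32 (SE 0.05, adjusted p = 1.56e-05; 0.0883) and MVB12B by 0.38 (SE 0.08, adjusted p = 4.93e-04; 0.0993). The median of the list was -0.00 against sO-L1 and 0.04 against ASO-Ctr. Against ASO-Ctr 2 rose and 2 fell, beside 21.5% called over all genes, and MVB12B, at -0.54 ± 0.08, was the 1 gene called without the block (adjusted p = 0.0356, edgeR). 6 of 8 other arrestin-fold genes were tested, and of these 1 fell against sO-L1: VPS26B, a retromer subunit, by 0.28 (SE 0.06, adjusted p = 1.73e-04, edgeR; 0.12 without the block). DSCR3, a VPS26-related protein (-0.08, adjusted p = 0.254, edgeR) and the beta-arrestin ARRB1 (-0.21, adjusted p = 0.328, edgeR) did not pass against sO-L1. Against ASO-Ctr 1 of the 6 rose and 2 fell, with no call without the block, and the medians were -0.03 against sO-L1 and -0.02 against ASO-Ctr. With 6 genes, these counts stand beside 23.0% and 21.5% called over all genes. Of 8 known cargo proteins of the family, 1 rose and 2 fell against sO-L1, and none rose and 3 fell against ASO-Ctr, with no call without the block. The shares called over all genes were 23.0% and 21.5%, and the medians of the cargo list were -0.04 and -0.06. The iron transporter SLC11A2, a cargo of ARRDC1 and ARRDC4, fell by 0.33 against sO-L1 (SE 0.05, adjusted p = 9.43e-07, edgeR; 0.0537 without the block), and the receptor NOTCH1 rose by 0.28 ± 0.05 (adjusted p = 3.16e-05, edgeR; 0.356 without the block). In sO-L1 against ASO-Ctr none of the genes in these 7 lists passed the test, beside only 1.72% called over all genes.

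**Figure D5:**
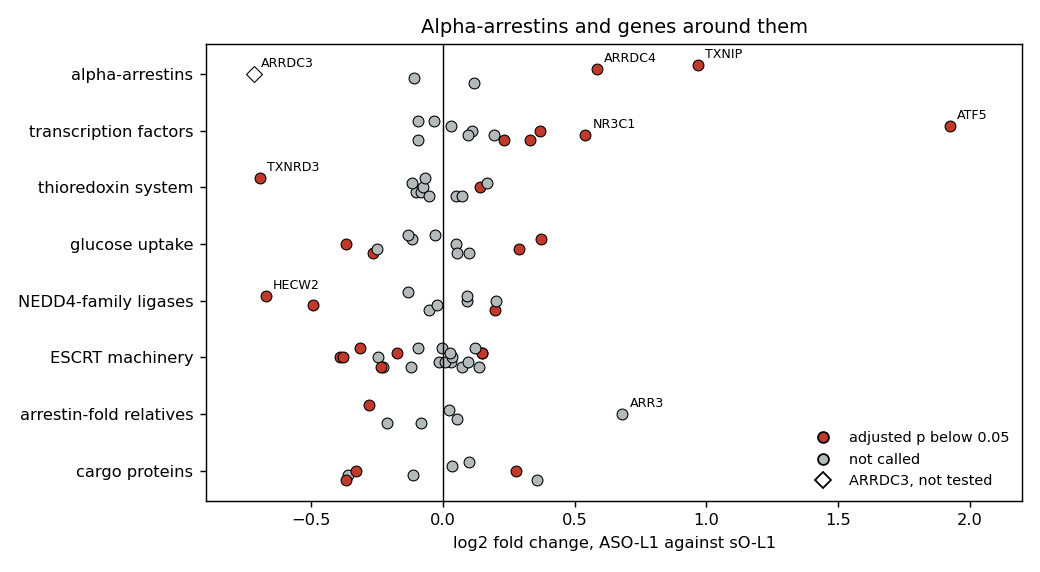
Log2 fold change in ASO-L1 against sO-L1 of the alpha-arrestins and of the tested genes in 7 lists around them, 1 point per gene. Red points had an adjusted p below 0.05 with the replicate block, grey points did not, and the open diamond is ARRDC3, which was not tested. Genes beyond 0.5 in either direction are named, and ATF5 is the furthest from 0 at 1.93.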

How the data were processed

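The deposited table holds whole-number counts for each gene symbol, from which the authors had removed duplicates, per the labels' file names. Per the submitters' processing notes, the tools were Trim Galore 0.4.0, TopHat2 2.0.13 and featureCounts of Subread 1.5.0, on hg19. Whether counting used strand is not given in the sources used here. The library kit was directional, with poly(A) selection. The authors' deposited log2 values are batch-corrected and normalized, per the labels' file names. A further table deposited by the authors holds their p-values and log2 fold changes for ASO-L1 minus sO-L1. In the raw count table the header names sit 1 cell left of the values, so columns were read by position after the gene column, and each count column correlated best with its own group in the log2 table.

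Counts were fitted with edgeR 4.0.16 in R 4.3.3. The 92 spike-in entries were left out, and 19156 genes passed filterByExpr (minimum count 10, minimum total 15). TMM factors ranged from 0.983 to 1.022. All 6 libraries entered 1 quasi-likelihood fit with group and replicate number, with a Benjamini-Hochberg adjusted p under 0.05 as the call. Residual degrees of freedom were 2, the median prior was 44.8 and the biological coefficient of variation 0.0354. SEs were derived from each gene's F statistic. CPM used plain library totals. The pipeline was tested on simulated data.

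The block was used since a batch-corrected table is named in the labels, which do not tie the numbers to a shared batch. The pairing is therefore not established. Replicate 1 minus replicate 2 values correlated between groups at 0.634, 0.520 and 0.601 over 14226 genes. Replicate 1 was the shallower library in every group, so replicate number and depth cannot be told apart in these correlations.

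The members and lists were chosen with earlier results of these data known. Named genes are all members, up to 3 genes per list with the smallest p in ASO-L1 against sO-L1, and the 3 nearest profiles of each member among genes with an average log2 CPM of at least 3. Alternatives were DESeq2 1.42.0 and its size factors, upper-quartile scaling, other filters, limma-voom (limma 3.58.1), no block, 4 libraries, each library left out, thinning and an adjusted p under 0.1. Motif and protein comparisons were planned, and the proteins were not analysed here.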

Additional observations from a re-analysis of the deposited data

How the results depend on the processing

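TXNIP and ARRDC4 were called higher in both ASO-L1 comparisons under every alternative that gave a test. The authors' deposited log2 table gave values only. Against sO-L1 their log2 fold changes ranged from 0.74 to 1.21 and from 0.52 to 0.66, and against ASO-Ctr from 0.92 to 1.39 and from 0.74 to 0.89. Their highest adjusted p-values came without the replicate block and stand in the report. ARRDC3 kept its sign, from -0.79 to -0.58 in ASO-L1 against sO-L1 and from 0.44 to 0.61 in sO-L1 against ASO-Ctr. In this last comparison TXNIP ranged from -0.06 to 0.31. ARRDC2, the member with the lowest counts, turned sign: thinned to the shallowest library it was 0.10 against sO-L1, and with limma-voom it was -0.012 against ASO-Ctr. With 1 library left out ARRDC2 ranged from -0.31 to 0.16 against sO-L1 and from -0.16 to 0.31 against ASO-Ctr.

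The number of genes called moved most with the replicate block. Without it 352 genes were called in ASO-L1 against sO-L1, 374 in ASO-L1 against ASO-Ctr and 0 in sO-L1 against ASO-Ctr (edgeR). With the block the numbers were 4412, 4120 and 330. In sO-L1 against ASO-Ctr without the block, 569 of 19156 genes had an unadjusted p under 0.05 (edgeR). That is a smaller share than the 0.05 expected if no gene differed. The block changed no call of a member, but it changed the calls of many list genes, not all of them named. DESeq2 called 2355, 2436 and 125 genes, and limma-voom called 191 in sO-L1 against ASO-Ctr. That comparison gave 516 with its own 4 libraries and 520 at an adjusted p under 0.1. With 1 library left out the ranges were 1802 to 4702, 2336 to 3693 and 9 to 496, where a library left alone in its group is assumed to vary like the others. In the authors' deposited log2 table the differences between group means for ASO-L1 against sO-L1 were 0.96 for TXNIP, 0.59 for ARRDC4 and -0.71 for ARRDC3. Apart from the named ones, the cause of these shifts was not tested. ASO-Ctr replicate 1 is the shallowest library, and its 43 counts of ARRDC2 limit that gene's precision.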
